A study of Mus musculus with 3 samples.

Results

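Astragaloside IV (a plant saponin from Astragalus) and oxymatrine (a plant alkaloid from Sophora) were compared directly in plasmacytoid dendritic cells, with 1 expression array for each compound out of the 3 arrays of the study. The 2 arrays were chosen by their titles, and the comparison covered 10671 of 19505 named genes. These genes had a 3-array mean of at least 5.28 on the log2 scale. That limit is the 95th percentile of 1410 genes for smell and pheromone receptors, which blood cells normally keep silent. Fam241b lay just inside this limit, with 5.41 in both treated arrays, and Vsig8 just outside it, with 5.23 with astragaloside IV and 5.37 with oxymatrine. All cells were wild type and came from the marrow of male BALB/c mice of 4 to 5 weeks. They were grown for between 6 and 9 days in Flt3 ligand at 100 ng/mL, matured with CpG oligodeoxynucleotides and sorted. The cells then had either astragaloside IV or oxymatrine for 12 h, followed in both cases by 1 h with the chemokine CCL21. The third array is of control cells, for which neither a vehicle nor CCL21 is stated, and its values stand beside the others for orientation only. The labels name no dose, no gate for the sort and no number of mice per array. The study asked how these compounds hold back the migration of the cells.

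Plasmacytoid dendritic cells sense nucleic acids in their endosomes through TLR7 and TLR9 and answer with type I interferon. After maturation they carry CCR7, which lets them follow CCL21 into lymph nodes. Chemokine receptors act through inhibitory G proteins and phosphoinositide 3-kinase on actin, which drives the cell forward.

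Every difference below is the log2 value with astragaloside IV minus that with oxymatrine, so 1 is a 2-fold higher value with astragaloside IV and -1 a 2-fold lower one. With a single array for each compound there was no replicate error, no test was possible and no p-value is given. The number of arrays limits the precision. In its place stands the SD of the difference over genes of similar level. It measures the scatter among such genes and is no replicate error.

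The arrays differed little. Of the 10671 genes, 4344 (40.7%) were higher with astragaloside IV, 3473 (32.5%) lower and 2854 (26.7%) exactly equal. An exact tie, here and below, is one of the deposited RMA values and does not show identical expression. How far the RMA processing made these ties was not tested. The difference was under 0.1 in either direction for 60.1% of the genes, its median was 0 and its mean 0.02, with an SD of 0.21 over genes. The SD over genes of like level went from 0.27 in the dimmest twentieth of the genes to 0.08 in the brightest. Among lineage genes of plasmacytoid dendritic cells, the transcription factor gene Tcf4 was at 14.37 in both, the surface marker Bst2 differed by 0.02 and Siglech by -0.03. The widest of the 25 lineage markers were Spib with 0.48 and Smim5 with -0.49. Among array controls, 1324 exonic probe sets were higher with astragaloside IV by a mean of 0.09 and 5222 intronic ones by 0.01. Of the exonic sets, 47 were 2-fold higher and 17 lower, with an SD of 0.52. Of 63 spike-in probe sets 0 were 2-fold apart, but their mean of 4.7 was under the limit and 46 were exactly equal. Whether the gap of 0.09 in the exonic controls took part in the results below was not tested.

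Few genes differed widely, and the wide differences went both ways. In all, 17 genes were at least 2-fold apart, 0.159% of the genes compared. Of these, 9 (0.0843%) were higher and 8 (0.075%) lower with astragaloside IV. After centring each array on its median, 7 were higher and 10 lower. Both treated values were above the limit of 5.28 for 10 of the 17. Of the 1410 receptor genes, 22 were 2-fold apart, or 1.56%, but 0 of the 71 that reached the limit were.

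**Figure D1:**
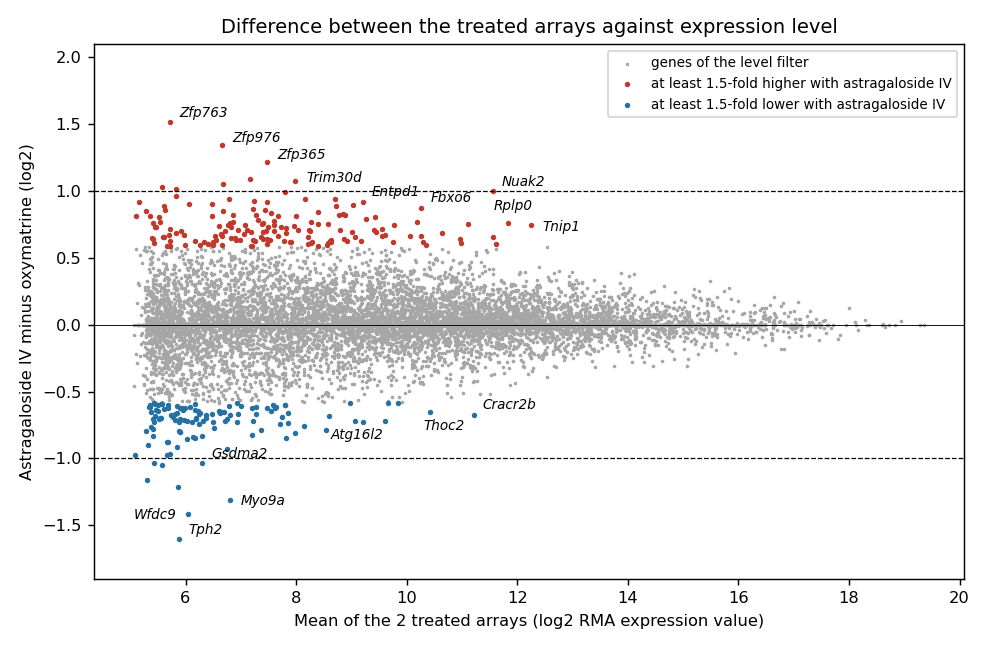
Difference between the treated arrays (astragaloside IV minus oxymatrine, log2) on the vertical axis against the mean of both arrays (log2 RMA value) on the horizontal axis, 1 point per gene for 10671 genes. Dashed lines mark 2-fold, red and blue points are the 156 genes at least 1.5-fold higher and the 119 at least 1.5-fold lower with astragaloside IV, and Nuak2 is the only gene at a level of 9 or more that reaches a dashed line.

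The widest differences on the higher side were in zinc finger genes. Zfp763 was at 6.47 with astragaloside IV and 4.96 with oxymatrine, a difference of 1.52, with the oxymatrine value under the limit and the control at 5.36. Zfp976 was at 7.32 and 5.98 in the same order, with 6.63 in control. Zfp365 was at 8.07 and 6.86, with 7.64 in control, which is a difference of 1.22 and 4.57 times the SD at its level. In all 3 the control value lay between the treated ones. Zfp763 and Zfp976 belong to large families of similar genes, so their probe sets may share signal with relatives.

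The other genes on this side have varied roles. Polr2l, a small subunit shared by the nuclear RNA polymerases, was at 7.71 with astragaloside IV, 6.61 with oxymatrine and 7.12 in control. Thap11, a DNA-binding protein known from embryonic stem cells, was at 7.20, 6.15 and 7.11 in the same order. In Thap11 the control array thus sat 0.09 from astragaloside IV and 0.96 from oxymatrine, whereas in Polr2l it sat near the middle. Car5b, a mitochondrial carbonic anhydrase, was at 6.08, 5.05 and 6.13, with the oxymatrine value under the limit. Trim30d, a relative of the interferon-induced Trim30a, was at 8.52, 7.44 and 8.41. Its difference was 1.08, and its relatives on the array may share part of the signal. Trim30a itself, which was named after its value was seen, differed by 0.24.

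Nuak2 stood apart from genes of its brightness. It encodes a kinase related to AMPK that acts on myosin phosphatase and on actin stress fibres. It was at 12.06 with astragaloside IV, 11.06 with oxymatrine and 12.25 in control, a difference of 1.00 or 2.00-fold. This was 6.86 times the SD at its level, the largest such multiple among the genes named here. It sat at the threshold, and it was just under 2-fold after median centring, quantile normalisation or lowess centring. The nearest gene outside was Dus1l, a tRNA-modifying enzyme, at 8.29, 7.30 and 7.49 with a difference of 0.99.

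Lower with astragaloside IV were mostly dim genes. Tph2, neuronal tryptophan hydroxylase, was at 5.08 with astragaloside IV, 6.68 with oxymatrine and 5.37 in control. Its difference of -1.61 was the only one of 3-fold or more, or 0.00937% of the genes compared. Skint10, of a family best known from skin and thymus, was at 5.26, 6.47 and 5.53, and Npl, which splits sialic acid, at 4.73, 5.89 and 5.25. Angptl6, an angiopoietin-like factor, was at 5.05, 6.09 and 5.05, and Tex43, a testis-expressed gene, at 4.92, 5.95 and 5.82. In these 5 genes the astragaloside IV value was under the limit, so each of these sizes rests on 1 reading at background. Tex43 was also the closest to the threshold on this side, and Sh2b1, an adaptor of receptor tyrosine kinases, the first outside it with -0.98. The astragaloside IV value of Sh2b1, 4.60, was also under the limit.

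The other 3 were above the limit of 5.28 in both arrays, Wfdc9 only just with astragaloside IV. The astragaloside IV values of Wfdc9 and Gsdma2 were under 5.88, the 99th percentile of the receptor genes. Wfdc9, of the WAP protease inhibitor family, was at 5.33 with astragaloside IV, 6.75 with oxymatrine and 6.91 in control. Myo9a, an unconventional myosin, was at 6.15, 7.46 and 7.46, and its difference of -1.31 was -4.72 times the SD at its level. For both, oxymatrine and control were close and astragaloside IV was the low array. Gsdma2, a gasdermin, was at 5.79, 6.82 and 5.43, so there oxymatrine was the high array.

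**Figure D2:**
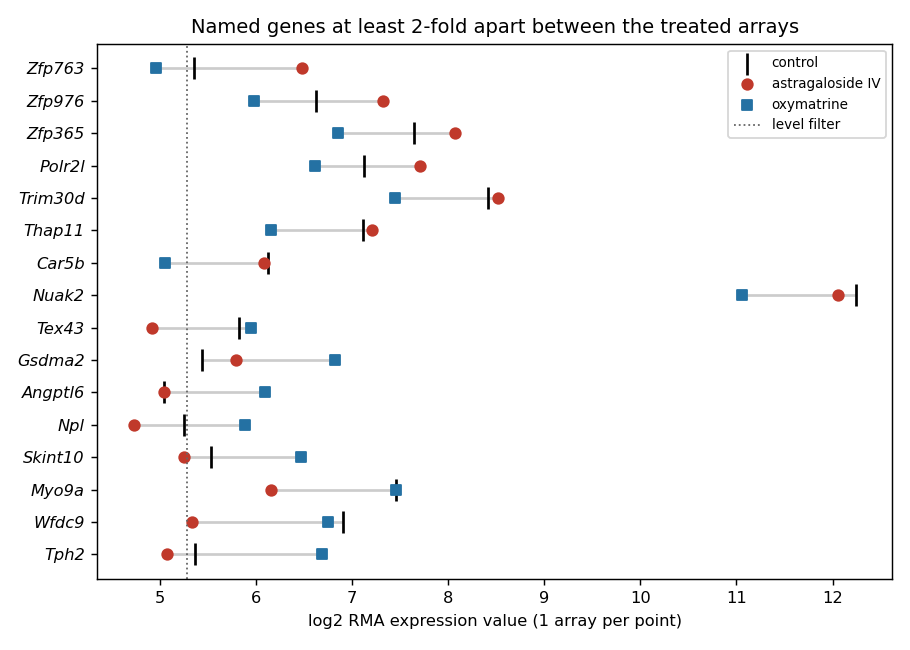
Deposited log2 RMA values (horizontal axis) of the 16 named genes at least 2-fold apart, 1 row per gene, with a red circle for astragaloside IV, a blue square for oxymatrine, a black bar for control and a dotted line at the level limit of 5.28. Nuak2 lies at 11.06 to 12.25, to the right of all others, and 7 of the genes have 1 treated value left of the dotted line.

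Promoters of 3 of these genes are shown as examples: a relative of an interferon-induced gene, a gene with a dense CpG promoter and a tissue-restricted gene. They do not typify the genes at either end. Each window runs from 250 bases before to 50 after the start in RefSeq (GRCm38.p6), 5′ to 3′ in the direction of the gene. Capitals mark matches on either strand to 6 motifs. They are the interferon response core (GAAA repeated after any 2 bases), the GC box GGGCGG, the CCAAT box, the TATA box TATAAA, the E-box CACGTG and the cAMP response element TGACGTCA. The windows are chr7:104507800-104508099 (minus strand) for Trim30d, chr9:59750924-59751223 (plus strand) for Myo9a and chr10:115184973-115185272 (minus strand) for Tph2.
Trim30d: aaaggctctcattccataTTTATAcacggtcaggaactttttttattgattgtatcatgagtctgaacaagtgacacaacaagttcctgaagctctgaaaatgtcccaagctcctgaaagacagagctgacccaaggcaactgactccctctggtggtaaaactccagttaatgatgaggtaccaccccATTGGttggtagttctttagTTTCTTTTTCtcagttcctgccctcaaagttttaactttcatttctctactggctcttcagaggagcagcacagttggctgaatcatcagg
Myo9a: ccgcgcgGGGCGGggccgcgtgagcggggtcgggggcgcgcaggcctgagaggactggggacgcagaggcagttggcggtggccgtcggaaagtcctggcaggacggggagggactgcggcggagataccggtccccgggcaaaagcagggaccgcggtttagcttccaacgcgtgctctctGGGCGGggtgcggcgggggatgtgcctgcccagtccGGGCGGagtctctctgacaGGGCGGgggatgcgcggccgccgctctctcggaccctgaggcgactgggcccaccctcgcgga
Tph2: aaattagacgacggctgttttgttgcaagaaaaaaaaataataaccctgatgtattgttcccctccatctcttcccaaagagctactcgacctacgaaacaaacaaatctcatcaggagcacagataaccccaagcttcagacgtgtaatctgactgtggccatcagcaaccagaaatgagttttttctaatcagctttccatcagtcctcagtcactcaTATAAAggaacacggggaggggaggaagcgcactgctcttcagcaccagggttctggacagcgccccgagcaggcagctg
The Trim30d window holds 1 CpG and a match to the interferon response core that begins 41 bases before the start, on the strand opposite to the gene, along with CCAAT and TATAAA matches further upstream. That motif is in 3.34% of 8725 windows of the genes compared, and in 3.44% of all 32851 windows. The Myo9a window holds 37 CpGs and 4 matches to GGGCGG, a motif present in 62.4% of the windows of the genes compared and 35.7% of all windows. The Tph2 window holds 9 CpGs and TATAAA from 30 bases before the start, where TATAAA is in 7.81% and 13.6% of the same windows. Over the genes compared the median window held 20 CpGs. The 7 windows found for the higher genes had a median of 10 and the 6 for the lower genes a median of 7. The table held no window matched to Nuak2, Gsdma2 or Tex43. CCAAT was in 39.5% of the windows of the genes compared, CACGTG in 10.3% and TGACGTCA in 3.24%, and in all windows in 37.4%, 7.15% and 1.79%. A match describes the letters and not a used site.

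The direction of the differences went with expression level. At 1.5-fold, 156 genes (1.46%) were higher and 119 (1.12%) lower with astragaloside IV, 2.58% together. The counts of list members past 1.5-fold given below are read beside that 2.58%. Among the 2637 genes with a treated mean under 7, 59 were higher and 89 lower. With both treated values above the limit, these were 42 and 58. They were 52 and 102 after median centring, 70 and 83 after quantile normalisation and 61 and 89 after lowess centring. Of all the 1.5-fold genes, 17 of the 156 higher and 31 of the 119 lower had 1 treated value under the limit. Among the 8034 genes at 7 or more, 97 were higher and 30 lower, and among the 5609 at 9 or more, 29 were higher and 7 lower. The last split was 27 and 10 after median centring, 26 and 10 after quantile normalisation and 29 and 8 after lowess centring. Without any threshold, 43.5% of the genes at 9 or more were higher and 31.4% lower.

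**Figure D3:**
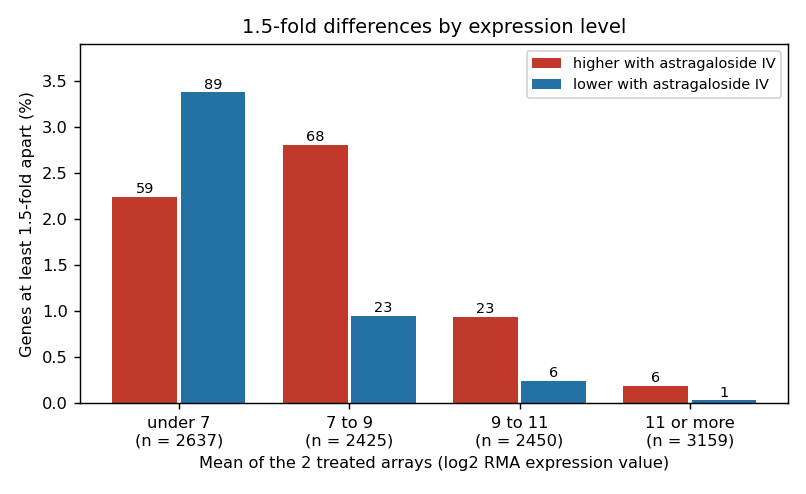
Share of genes at least 1.5-fold higher (red) or lower (blue) with astragaloside IV, in percent on the vertical axis, in 4 classes of the mean of both treated arrays (log2 RMA value) on the horizontal axis, with the number of genes above each bar. Lower genes outnumber higher ones 89 to 59 under a level of 7, and higher ones outnumber lower ones in the 3 classes above it.

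The control array was nearer to astragaloside IV in most of these genes. Of the 275 genes at least 1.5-fold apart, control lay closer to the astragaloside IV value in 187, or 68.0%. Over all 7817 genes that were not equal between the treated arrays this share was 58.6%. It was 117 of 156 for the higher genes and 70 of 119 for the lower ones. For the lower genes the share was thus close to the 58.6% over all unequal genes. Among the 156, control lay between the treated values in 101, above both in 33 and below both in 6. Among the 119, it lay between them in 63, below both in 22 and above both in 15. In the rest it equalled 1 of the treated values. These places were not counted over all genes, so no share stands beside them.

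Bright genes that were low with oxymatrine include enzymes, a receptor and parts of the translation and cytoskeletal machinery. Entpd1, which encodes CD39 and breaks down extracellular ATP, was at 9.67 with astragaloside IV, 8.75 with oxymatrine and 9.74 in control. Rxrb, a retinoid X receptor that pairs with other nuclear receptors, was at 9.47, 8.58 and 9.47, and Fbxo6, an F-box protein for misfolded glycoproteins, at 10.70, 9.82 and 10.79. In these 3 genes the control and astragaloside IV arrays lay within 0.09 of each other and oxymatrine was the low array. Rplp0, of the ribosomal stalk, was at 12.22, 11.46 and 12.38, 5.22 times the SD of its level. Tubg1, the gamma-tubulin of the centrosome, was at 9.66, 8.87 and 9.47, Vamp7, a SNARE of exocytosis, at 11.49, 10.74 and 11.16, and Ndrg3 at 10.57, 9.80 and 10.30. For Tubg1, Vamp7 and Ndrg3 control lay between the treated arrays.

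Fewer bright genes were high with oxymatrine, and the 8 furthest down are given here. Cracr2b, a regulator of store-operated calcium entry, was at 10.88 with astragaloside IV, 11.55 with oxymatrine and 10.70 in control, the furthest of the 8 by its SD at -4.42. Malt1, the paracaspase of the NF-kB pathway, was at 9.38, 9.97 and 9.41, and Tmbim1 at 9.56, 10.14 and 9.62. For these 3, oxymatrine was the array apart. Thoc2, of the mRNA export complex THO, was at 10.11, 10.75 and 10.75, so here astragaloside IV was the low array. Zfp511 differed by -0.73, the centrosomal gene Cep57 by -0.72, the autophagy gene Atg16l2 by -0.72 and Scoc by -0.58, each with control between.

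**Figure D4:**
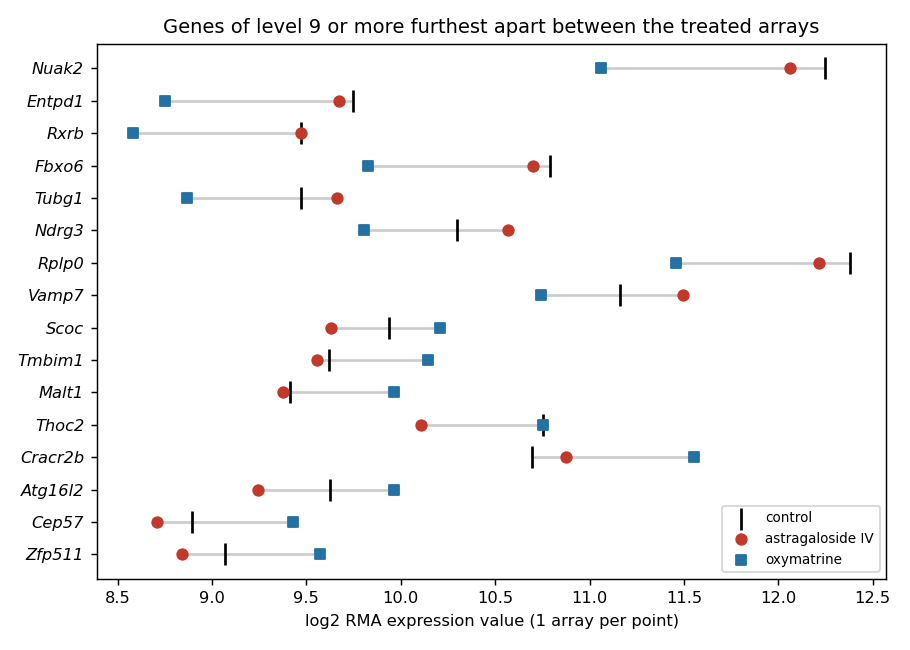
Deposited log2 RMA values (horizontal axis) of the 8 highest and 8 lowest differences among named genes with a treated mean of 9 or more, 1 row per gene, with a red circle for astragaloside IV, a blue square for oxymatrine and a black bar for control. In Nuak2, Entpd1, Rxrb, Fbxo6 and Rplp0 the blue square stands apart on the left while circle and bar are close.

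Receptors that guide migration were close between the compounds. Ccr7, the receptor of CCL21, was at 16.35 with astragaloside IV and 16.26 with oxymatrine, a difference of 0.09. Cxcr4, which holds cells in the marrow, differed by 0.13, Ccr2 by 0.15, the gut-homing receptor Ccr9 by 0.05 and Cxcr3 by 0. Of 20 chemoattractant receptors above the limit out of 33 measured, 8 were higher, 9 lower and 3 equal with astragaloside IV, with a median of 0 as over all genes. Ccr4 alone passed 1.5-fold, where 2.58% of all genes did. It was at 7.24 with astragaloside IV, 6.61 with oxymatrine and 7.33 in control. S1pr2, a sphingosine 1-phosphate receptor that restrains movement, differed by 0.32, Ccr3 by -0.24 and the chemerin receptor Cmklr1 by -0.25.

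Chemokine genes differed by small amounts. Of 22 above the limit out of 36 measured, 5 were higher, 15 lower and 2 equal with astragaloside IV, where 40.7% of all genes were higher, 32.5% lower and 26.7% equal. Their median was -0.03, and -0.06 after median centring, where the median over all genes was 0 and -0.03. Xcl1, lymphotactin, was at 5.03 with astragaloside IV and 5.54 with oxymatrine, against 6.66 in control, and the former value was under the limit. The neutrophil-attracting Cxcl1 was at 8.16, 8.42 and 8.42, while Cxcl11, an interferon-induced ligand of CXCR3, was at 8.49, 8.21 and 8.19. Ccl21a differed by -0.25. None of these genes reached 1.5-fold, with 2.58% of all genes past it. All 3 neutrophil markers above the limit, of 18 measured, were lower with astragaloside IV too, Csf3r by a difference of -0.39, Mmp8 by -0.26 and Lcn2 by -0.23. Their summed linear level was 7987 with astragaloside IV and 9543 with oxymatrine, and the granule markers Elane, Mpo and Camp were below the limit. Lcn2, at 12.71 with astragaloside IV, was the brightest of the 3 and weighs most in this sum. The median of these 3 was -0.26, and over all 18 measured, without the limit, it was -0.04. Their part in the result was not tested, and in bulk RNA fewer cells of a type and less RNA per cell cannot be told apart.

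Signalling and cytoskeletal genes of migration had no common direction. Of 48 genes of G protein and phosphoinositide 3-kinase signalling, 19 were higher, 20 lower and 9 equal. Arhgef1, which acts downstream of G proteins, was at 11.55 with astragaloside IV, 11.16 with oxymatrine and 11.82 in control. The kinase subunit Pik3r6 was at 8.30, 8.84 and 8.47, and the inhibitory G protein Gnai1 at 6.08, 6.48 and 6.48. Of 66 genes of actin and actomyosin, 21 were higher, 21 lower and 24 equal. Only Myo9a passed 1.5-fold there, followed by Mylk, the myosin light chain kinase, with 0.52 and the actin cross-linker genes Flna with -0.31 and Actn1 with 0.31. Of 36 integrins and adhesion molecules 12 were higher and 11 lower, with Itgax at -0.28 and Cd99 at 0.22. None was 1.5-fold apart, where 2.58% of all genes were.

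Microtubule and polarity genes held members at both ends. Of 31, 12 were higher and 14 lower, Tubg1 with 0.79 and Pard6a with -0.93. Pard6a, a scaffold of the cell polarity complex, was at 6.28 with astragaloside IV, 7.21 with oxymatrine and 6.22 in control, so oxymatrine was the high array. The tubulin-binding gene Stmn3 was at 6.06, 6.57 and 5.34, and the tubulin gene Tubb2b at 11.40, 11.77 and 11.59.

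Interferon-stimulated genes differed by small amounts. Of 55, 33 were higher, 10 lower and 12 equal with astragaloside IV, where 40.7% of all genes were higher, 32.5% lower and 26.7% equal. None reached 1.5-fold, with 2.58% of all genes past it. The list had a median of 0.02, which was -0.01 after median centring. Ifit2, which blocks translation of viral RNA, was at 8.68 with astragaloside IV, 8.15 with oxymatrine and 8.38 in control, and the antiviral enzyme Rsad2 at 8.94, 8.51 and 8.78. The guanylate-binding protein Gbp2 was at 13.71, 13.42 and 13.38. Mx2 went the other way at 10.08, 10.52 and 10.08. In Ifit2 and Rsad2 control lay between the compounds, in Gbp2 near oxymatrine and in Mx2 near astragaloside IV. Of 28 genes of endosomal toll-like receptor signalling, 6 were higher, 13 lower and 9 equal, and Tlr7 differed by 0.02, Tlr9 by -0.09, Irf7 by 0.11 and Irf8 by -0.10. Tlr3 had the widest difference of that list, 0.43.

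Among inhibitors of NF-kB, Tnip1 was the gene furthest apart. It encodes a partner of the deubiquitinase A20 and was at 12.63 with astragaloside IV, 11.88 with oxymatrine and 12.62 in control, a difference of 5.90 times the SD of its level. Its relative Tnip2 was at 7.63, 7.18 and 7.82. Both were lowest with oxymatrine. The immediate early genes Fosb and Nr4a1 were highest with oxymatrine, Fosb at 8.56, 9.02 and 8.56 and Nr4a1 at 8.70, 9.08 and 8.93. Of the 40 genes of this list 23 were higher, 11 lower and 6 equal with astragaloside IV, with a median of 0.02 that was -0.01 after median centring.

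The SOCS family of suppressors of cytokine signalling had 6 genes above the limit. With astragaloside IV 4 were higher and 2 lower, where 40.7% of all genes were higher, and the median of these few genes was 0.15. Socs3, which restrains receptors of the IL-6 family, was at 7.99 with astragaloside IV, 7.21 with oxymatrine and 8.28 in control. Socs6 differed by 0.37, Socs4 by 0.26, Socs1 by 0.04, Socs7 by -0.01 and Socs2 by -0.07. Of 20 genes of dendritic cell maturation, which also hold Socs1, Socs2 and Socs3, 11 were higher, 3 lower and 6 equal, with a median of 0.04 that was 0.01 after median centring and 0.02 after quantile normalisation. Tnfsf4, the OX40 ligand, differed by 0.30 and Cd40 by 0.22, while Cd86 was at 12.87 in both. Of 20 inflammatory cytokine genes 5 were higher and 8 lower, among them Nos2, inducible nitric oxide synthase, at 5.71 with astragaloside IV, 6.55 with oxymatrine and 6.24 in control. Il18 differed by 0.31 and Il1a by -0.16. Of 28 TNF superfamily genes 9 were higher and 11 lower. Tnfrsf22, a decoy receptor, was the only one past 1.5-fold, at 5.52 with astragaloside IV, 6.19 with oxymatrine and 6.08 in control, and the TNF receptor Tnfrsf1a differed by 0.55. Of 31 interleukin receptors 12 were higher and 12 lower, with Il6ra at 0.48 and Il9r at -0.52.

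Genes of protein synthesis and breakdown differed by small amounts, with 1 exception. Of 62 ribosomal protein genes, 39 were higher, 9 lower and 14 equal, with a median of 0.03, and only Rplp0 passed 1.5-fold. Rpl37a was at 14.20 with astragaloside IV, 13.83 with oxymatrine and 14.04 in control. Of 36 proteasome subunits 21 were higher, 7 lower and 8 equal, with a median of 0.04. None of these subunits passed 1.5-fold, where 2.58% of all genes did. The ATPase subunits Psmc5 and Psmc2 were at 11.34, 10.92 and 11.37 and at 14.07, 13.68 and 13.99, and the core subunit Psma3 at 14.30, 13.92 and 14.51, so oxymatrine was the low array in each. The medians of both lists were 0.01 after median centring. These genes are bright, and among all 3159 genes at a level of 11 or more 44.1% were higher and 30.9% lower. The exonic array controls were higher with astragaloside IV as well, as given above.

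Genes of the respiratory chain and ATP synthase were higher in 21 of 39 cases and lower in 7. Of all genes 40.7% were higher and 32.5% lower, and of those at a level of 11 or more 44.1% and 30.9%. The median of the respiratory list was 0.01. It was -0.02 after median centring, -0.01 after quantile normalisation and near 0 after lowess centring. Sdha, a subunit of succinate dehydrogenase, was at 9.95 with astragaloside IV, 9.28 with oxymatrine and 10.18 in control, and the complex I subunit Ndufv2 at 13.23, 12.89 and 13.37. In both, oxymatrine was the low array. Of 74 mitochondrial ribosomal protein genes 33 were higher, 16 lower and 25 equal, with Mrps25 at 0.56 and Mrpl10 at 0.53.

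Among the AMPK-related kinases and their regulators, Nuak2 alone passed 1.5-fold. Of 24 genes 12 were higher, 8 lower and 4 equal, with a median of 0.02 that was near 0 after median centring. Stradb, a partner of the upstream kinase LKB1, was at 9.88 with astragaloside IV and 9.36 with oxymatrine, as in control, and Strada at 6.87 and 6.38. Mark2, a polarity kinase, differed by -0.27. In the MAP4K family Map4k5 was at 10.39, 9.73 and 10.86 with astragaloside IV, oxymatrine and control, while Map4k4 differed by 0.07 and Map4k1 and Mink1 by 0. Control was the highest array for Map4k5, so both compounds lay below it to different extents.

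Peroxisome and autophagy genes had a few wide members. Pex5, the import receptor of peroxisomes, was at 6.30 with astragaloside IV, 5.63 with oxymatrine and 6.79 in control, and Pex2, of the import complex, at 8.10, 7.57 and 7.84. The other 7 of 9 peroxisome genes lay between -0.11 and 0.04. Of 30 autophagy genes 17 were higher and 9 lower, with a median of 0.02 and -0.01 after median centring. Of these, 3 were at least 1.5-fold higher and 1 lower, where 1.46% of all genes were higher and 1.12% lower at that size. Atg5, which helps to lipidate LC3, was at 10.59, 9.93 and 10.36, the initiating kinase Ulk1 at 6.48, 5.85 and 6.58 and its partner Rb1cc1 at 8.20, 7.58 and 8.32. The last was Atg16l2. The lysosomal regulator Tfeb differed by -0.61.

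Stress and metabolic genes were mixed. Bach1, a repressor of antioxidant genes, was at 10.98 with astragaloside IV, 10.29 with oxymatrine and 10.85 in control, and the antioxidant enzyme Srxn1 at 10.75, 10.26 and 10.79, so a repressor and an enzyme of this response were both low with oxymatrine. Of 29 oxidative stress genes 12 were higher and 12 lower. Of 16 liver X receptor targets and fatty acid synthesis genes 5 were higher and 10 lower, with a median of -0.05. Abca1, the cholesterol exporter, was at 9.04, 9.51 and 9.32, and Acaca, acetyl-CoA carboxylase, at 8.92, 8.50 and 8.31. Of 35 unfolded protein and integrated stress response genes 12 were higher and 16 lower, with Chac1, which degrades glutathione, at -0.45. Of 23 cholesterol genes 7 were higher and 10 lower, with Mvk at 0.46, and of 29 glycolysis genes 12 were higher and 8 lower, with Eno2 at 0.39. Of 27 p53 targets and BCL2 family genes 11 were higher and 8 lower, with Casp9, the caspase of the apoptosome, at 8.17, 7.45 and 8.02.

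The cell cycle list had 15 of 45 genes higher and 22 lower. Cdc25b, a phosphatase that starts mitosis, was at 5.00 with astragaloside IV, 5.83 with oxymatrine and 5.17 in control, with 2 of the values under the limit. The replication factor Cdc6 differed by -0.53 and the spindle gene Prc1 by 0.50. Of 58 histone genes 31 were higher and 16 lower, with a median of 0.02 that was -0.01 after median centring, and H2bc11 differed by 0.61. Histone genes are near-identical copies, so their probe sets are uncertain.

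Large gene families gave a scale for these counts. Of 276 Zfp zinc finger genes above the limit 99 were higher, 108 lower and 69 equal, with 7 at least 1.5-fold higher and 5 lower, where 2.58% of all genes were that far apart. The 3 Zfp genes at 2-fold, where 0.159% of all genes were, were higher with astragaloside IV. Of 174 solute carriers 68 were higher and 66 lower. Slc9a9, an endosomal sodium-proton exchanger, was at 7.86 with astragaloside IV, 0.86 above oxymatrine and control, which were equal, and the zinc importer Slc39a10 at 8.08, 7.27 and 7.90. Of 35 TRIM genes 14 were higher and 14 lower, Trim65 by a difference of -0.65. Of 18 Clec lectin genes 11 were higher, 3 lower and 4 equal, with a median of 0.02 that was -0.01 after median centring, and Clec4a4 differed by 0.38.

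The other lists were small or had few wide members. Of 23 genes of antigen presentation 6 were higher, 10 lower and 7 equal, from H2-D1 at 0.33, which shares sequence with other class I genes, to H2-DMb2, a chaperone of class II, at -0.32. Of 16 heat shock genes 9 were higher and 6 lower, with Dnajb4 at -0.49, and of 20 glucocorticoid response genes 11 were higher and 5 lower, with Klf9 at 0.34. Of 31 genes of the proton pump and lysosome 8 were higher and 13 lower, and only Tfeb passed 1.5-fold. Of 15 Abl kinases and adaptors 6 were higher and 3 lower, and only Sh2b1 passed 1.5-fold, with its astragaloside IV value under the limit. Of 38 orphan and adhesion receptors 17 were higher and 11 lower, with the proton-sensing Gpr4 at -0.72 and Gpr34 at -0.71. The proton channel Hvcn1 was at 7.52 with astragaloside IV and 7.41 with oxymatrine against 8.56 in control, and 5 of the 8 genes of its list were higher and 2 lower. Ypel1 was at 10.05 and 10.08 against 9.01 in control, so in Hvcn1 and Ypel1 the compounds lay close to each other and apart from control. The 3 YPEL genes had a median of -0.03 and a mean of 0.03. Of 13 housekeeping genes 4 were higher, 3 lower and 6 equal. Rplp0 and Sdha were the 2 at 1.5-fold, where 2.58% of all genes were that far apart.

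**Figure D5:**
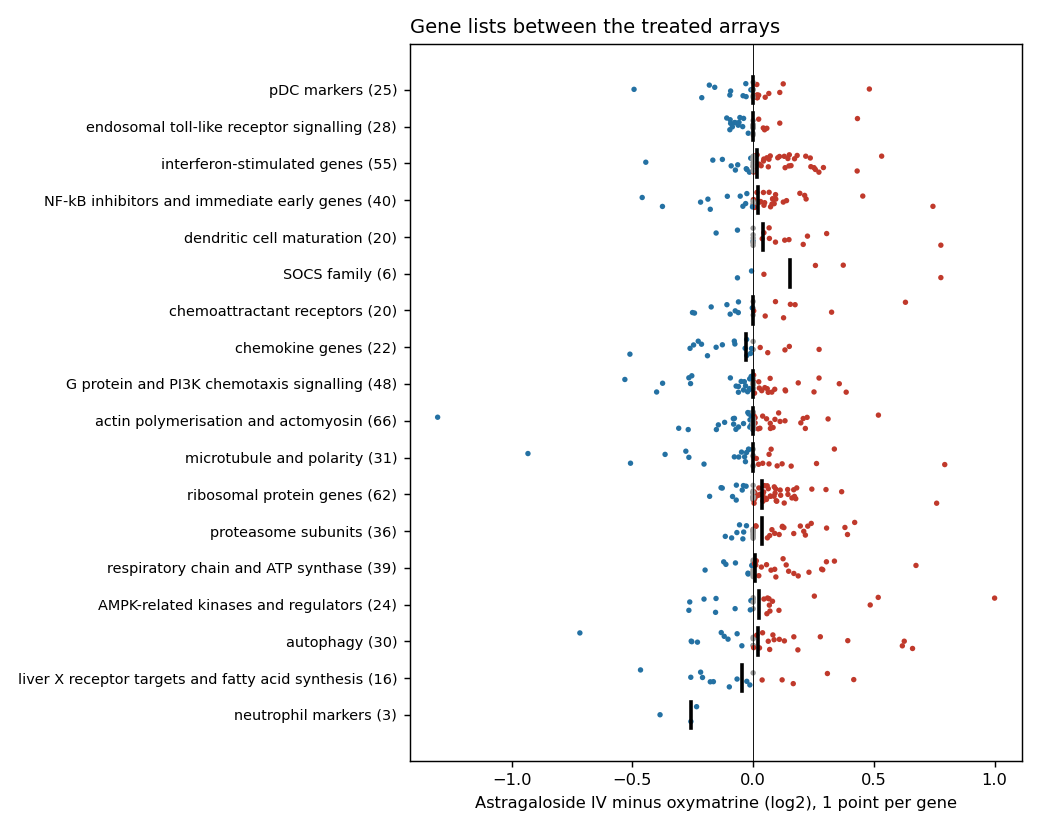
Differences (astragaloside IV minus oxymatrine, log2, horizontal axis) of the members above the level limit in 18 gene lists, 1 point per gene, red for higher, blue for lower and grey for equal, with the number of genes in parentheses and a black bar at the list median. Medians lie within 0.05 of 0 except for the SOCS family at 0.15 and the 3 neutrophil markers at -0.26, a value that is -0.04 over all 18 measured.

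Markers of cell types were read in the same way. Of 25 plasmacytoid dendritic cell markers above the limit out of 29 measured, 10 were higher, 10 lower and 5 equal. None was 1.5-fold apart, where 2.58% of all genes were. Spib, a transcription factor of the lineage, was at 8.03 with astragaloside IV, 7.55 with oxymatrine and 8.03 in control, and Smim5 at 7.19, 7.68 and 6.36. The summed linear level of the 25 markers with astragaloside IV was 1.03 times that with oxymatrine. Such a sum is weighted to its brightest members, here Grn, Cybb and Pld4 at 17.27, 16.54 and 16.19 with astragaloside IV. The same ratio was 1.10 for 9 of 12 markers of type 1 and 0.969 for 10 of 14 markers of type 2 conventional dendritic cells, whose widest member was Irf4, at 8.70, 8.11 and 8.50. Clec9a and Xcr1, which define type 1 cells, were below the limit. The ratio was 0.994 for 16 of 16 monocyte and macrophage markers, 1.02 for 7 of 16 T and NK cell markers and 0.896 for 4 of 11 B cell markers. T and B cell receptor genes Cd3e, Cd3d, Cd3g and Cd79a were below the limit. The 4 B cell markers above it were Cd79b, Ebf1, Fcer2a and Ms4a1. Of these, Cd79b was the brightest, at 9.91 with astragaloside IV and 10.13 with oxymatrine. The ratio was 0.837 for the neutrophil markers and 0.806 for Car2, the 1 of 6 erythroid markers above the limit. It was 1.08 for 2 of 9 mast cell and basophil markers. These ratios compare the arrays, and the purity of the cells was not tested. With astragaloside IV, monocyte and macrophage markers ran from Ms4a7 at 15.62 to Vcan at 5.91, with Adgre1 at 13.98 and Lyz2 at 13.88. Plasmacytoid markers ran from Grn at 17.27 to Ptprcap at 5.44, with Tcf4 at 14.37, Ccr9 at 9.20 and Siglech at 8.99.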

How the data were processed

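Plasmacytoid dendritic cell RNA was measured on 1 whole-transcript array per culture. The authors made the deposited log2 values, 1 for each probe set, with RMA, per the submitters' processing notes. The RMA version is not given in the sources used here, nor the build. Values span 1.78 to 19.7, from which the base of the logarithm was inferred. RMA normally includes quantile normalisation between arrays, which can hide a shift of all genes.

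Of 28846 probe sets, 19572 had 1 gene symbol, 0 several and 9274 none, in an annotation of 2019; all 19572 Entrez identifiers matched RefSeq. Where a gene had more than 1 probe set (55 genes), the brightest by its mean was kept. Differences, counts past 2-fold and 1.5-fold, list counts and medians and the SD over 20 level bins were computed with Python 3.11.15, numpy 2.4.6, pandas 2.3.3, scipy 1.17.1 and statsmodels 0.14.6, and drawn with matplotlib 3.10.9. The calculation was tested on simulated data.

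The members, the 52 gene lists and the naming rule were chosen with earlier results of these data known. The rule took the 15 highest and 15 lowest genes, the 8 highest and 8 lowest of level 9 or more, all at 2-fold, those next to each threshold, 4 members of each list (all where a list had 10 or fewer) and a fixed set of migration and lineage genes. Predicted and clone-numbered loci, small RNAs and the smell and pheromone receptors count in the totals but are not named. Alternatives were other level filters, thresholds, centrings, quantile normalisation, lowess (fraction 0.3) and probe set means.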

Additional observations from a re-analysis of the deposited data

How the results depend on the processing

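Without a level filter 35 genes were 2-fold higher and 47 lower with astragaloside IV. With the 99th percentile filter 6 were higher and 3 lower, and with both treated arrays above the limit 7 and 3. The latter filter leaves out by design the 7 genes with 1 treated value under the limit. At 1.5-fold the counts were 156 and 119, and at 3-fold 0 and 1. Of the 17 genes, 15 kept their direction and 2-fold size after median centring, 16 after quantile normalisation and 16 after lowess centring, and Nuak2 was lost in each. None of the named 2-fold genes changed sign under the alternatives in which it was compared. After median centring, 5 of 264 named genes changed sign. Median centring lowered the list medians as it did the median over all genes, which was -0.03 after it. Positive list medians up to 0.02 changed sign under it. Larger ones stayed positive but shrank, such as that of the ribosomal protein genes from 0.03 to 0.01. Under a level of 7 the 1.5-fold counts were 34 higher and 46 lower with the 99th percentile filter, 277 and 423 without a filter and 42 and 58 with both arrays above the limit, against 59 and 89. The excess of lower genes there was smallest after quantile normalisation among the 3 normalisations, at 70 and 83. The alternatives for the counts by level were added after seeing the data, and both counts at level 9 or more stayed within 1.5 times under all 7 alternatives that kept the threshold. No paired analysis was possible because each group has 1 array. Dim genes were the least certain, since values near the limit carry background.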

Other observations

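Of 2615 transcript probe sets with no gene name, 1273 had a mean at or above the limit of 5.28. Among these, 2 were at least 2-fold higher and 1 at least 2-fold lower with astragaloside IV than with oxymatrine, and their median difference was 0. Intronic control probe sets, which carry little transcript signal, varied far more than genes: 575 of 5222 were 2-fold higher and 563 lower, with an SD of 1.00, against an SD of 0.21 over the genes compared. These control sets had no level filter, unlike the genes. The SD was 0.33 over all smell and pheromone receptor genes. For the exonic control probe sets, with a mean level of 10.2 with astragaloside IV, it was 0.52.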
